A study of Mus musculus with 6 samples.

Results

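The genes of 10 transcription factors that set whether a CD8 T cell stays naive or becomes an effector, memory or exhausted cell were followed in naive CD8 T cells of differing Nur77-GFP brightness. They were Tcf7, Lef1, Foxo1, Foxp1, Bach2, Id3, Id2, Tbx21, Eomes and Tox, taken by symbol from a table of 11162 genes. All 10 were in the table and all 10 passed the filter on low values, a mean of at least 1 RPKM across the 6 libraries, which left 9351 genes to test. RPKM is a level per length, the reads of a gene divided by the length of the gene and by the reads of the library. The cells came from the spleen of mice that carry the transgene Tg(Nr4a1-EGFP)GY139Gsat, in which regulatory sequence of Nr4a1, the gene of the immediate early receptor Nur77, drives a green fluorescent protein. Cells of both groups were sorted as CD8-positive cells that were CD44-low and Qa2-high, among other markers, and both carried OT-I, a transgenic T-cell receptor that gives the cells 1 specificity. The groups differed in the reporter gate, GFP-hi or GFP-lo, with 3 libraries each, and no treatment was named for either. The age of the mice, the number of mice behind a library and whether a GFP-hi and a GFP-lo library share a mouse were not given in the sources used here, so p-values measure the spread between these libraries, which may be technical.

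Tcf7 encodes TCF-1, which together with LEF-1 holds the naive and memory program of CD8 T cells open. Foxo1 drives genes of survival and homing, Foxp1 keeps naive cells quiescent, and Bach2 represses genes that would carry the cell into effector differentiation. Id2 and Id3 encode inhibitors that bind E proteins and keep them from DNA, and in CD8 T cells Id3 is linked with memory precursors and Id2 with effector cells. Tbx21 encodes T-bet and Eomes encodes Eomesodermin, related T-box factors that drive cytotoxic and memory genes. Tox is used in thymic selection and is best known in mature CD8 T cells for its part in exhaustion.

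Among the 10 factors, Id2 and Tox were higher in GFP-hi cells and none was lower (limma on log2(RPKM + 1), adjusted p under 0.05 over all genes tested). The rises were modest, with mean levels 29.6% higher for Id2 and 24.7% higher for Tox. Of all genes tested, 3.95% passed the same threshold in either direction, 2.46% as higher and 1.49% as lower. With scaling by the trimmed mean of M values the calls over all genes were 201 up and 189 down, against 230 up and 139 down as deposited, and Id2 and Tox were again the 2 factors called. None of the factors of the naive program passed, with mean differences from -4.02% for Tcf7 to 13.15% for Lef1. The limma interval of Lef1, -0.03 to 0.38 on the log2 scale, holds changes of the size seen in Id2 and Tox. That of Foxo1, 0.02 to 0.26, held only positive values, although Foxo1 did not pass after adjustment. The T-box factors gave no difference that could be told from the spread between libraries. In bulk samples a change in RNA per cell and a change in the share of cells that express a gene cannot be told apart.

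The depth of the libraries, recovered from the step that 1 read makes in low RPKM values, was such that an RPKM of 1 rested on 26.2 to 35.9 reads per kilobase of transcript. The CD8 chains Cd8a and Cd8b1 summed to 888 to 943 RPKM in GFP-hi and to 876 to 933 RPKM in GFP-lo libraries. Of the 5 natural killer cell markers none was listed, and of the 4 CD4 T cell markers Cd40lg alone was, with Cd4 itself not listed. Cd40lg was lower in GFP-hi (14.2 to 22.7 RPKM) than in GFP-lo libraries (35.4 to 46.9 RPKM), without overlap. The 5 markers of memory-phenotype CD8 T cells summed to 124 to 142 RPKM in GFP-hi and to 144 to 160 RPKM in GFP-lo libraries, also without overlap. Without Cxcr3, which is 1 of them, the other 4 summed to 115 to 129 RPKM and 121 to 128 RPKM, which overlapped. That sum joins genes that differed in opposite directions. Ly6c2 was lower in GFP-hi (17.03 to 31.09 RPKM) than in GFP-lo libraries (31.36 to 51.76 RPKM), without overlap. Il2rb (69.47 to 79.41 against 56.44 to 68.58 RPKM) and Itgb1 (20.45 to 21.84 against 17.82 to 19.63 RPKM) were higher in GFP-hi, also without overlap. Cd44 overlapped. The 2 listed B cell markers, of 5, summed to 12.5 to 14.2 RPKM in GFP-hi and to 10.9 to 11.3 RPKM in GFP-lo, without overlap. Cd79a and Pax5 were among those not listed. The 5 listed T cell markers, of 6, were likewise higher in GFP-hi (899.5 to 958 RPKM) than in GFP-lo libraries (873 to 888 RPKM), without overlap. The 2 listed myeloid markers, of 5, reached at most 2.50 RPKM in sum. Replicate 2 of both groups stood apart by heat-shock RNA, with Hspa1a at 1100 RPKM in GFP-hi replicate 2 and 1234 RPKM in GFP-lo replicate 2 against 152 to 235 RPKM elsewhere. For the called factors and the called genes of the lists, results are therefore also given without these 2 libraries. Reads of nasal receptor genes divided the libraries in another way. Their median over 41 genes was 0.037 RPKM in GFP-hi replicate 2 and 0.038 RPKM in GFP-lo replicate 1, against 0.263 to 0.583 RPKM elsewhere. The source of this difference was not tested. Nr4a1 did not separate the groups, as it lay at 37.0 to 90.9 RPKM in GFP-hi and at 33.8 to 84.9 RPKM in GFP-lo libraries. The GFP row of the table overlapped as well, with 214, 262 and 215 RPKM in GFP-hi and 216, 215 and 191 RPKM in GFP-lo libraries, so neither the reporter RNA nor Nr4a1 RNA separated the gates.

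The factors covered a wide range of levels, and their order was the same for most neighbours in every library. Tcf7 was the most abundant, with a mean of 423 ± 10.8 RPKM over the 6 libraries (SD), a level above that of 99.8% of genes tested. Lef1 followed at 103 ± 11.2 RPKM and Id3 at 81.7 ± 29.4 RPKM. These neighbours overlapped in range, and Lef1 was above Id3 in 5 of the 6 libraries. Foxo1 (52.3 ± 3.11 RPKM) was below Id3 in all 6 libraries, although their ranges overlapped. Id2 (31.9 ± 4.99 RPKM), Foxp1 (18.9 ± 0.507 RPKM) and Tox (11.1 ± 1.37 RPKM) came next, each separate in range from the factor above it. Eomes (6.55 ± 1.08 RPKM), Bach2 (6.55 ± 0.405 RPKM) and Tbx21 (6.53 ± 1.87 RPKM) formed the lowest tier and could not be ranked against each other. Naive CD8 T cells of both groups thus held Tcf7 RNA at 4.11 times the level of Lef1. The T-box factors lay at the low end of the set, as did Bach2 of the naive side.

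**Figure D1:**
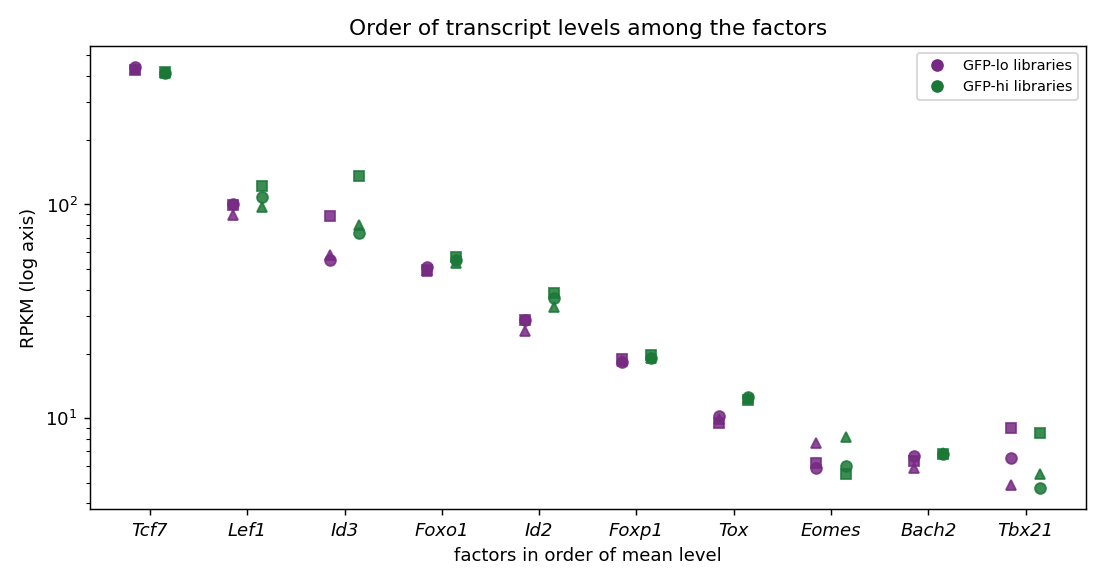
RPKM on a log axis for the 10 factors in order of mean level, with each point 1 library (purple GFP-lo, green GFP-hi; circle, square and triangle are replicates 1, 2 and 3). Tcf7 sits above 412 RPKM in all 6 libraries, and Eomes, Bach2 and Tbx21 share the range from 4.70 to 9.04 RPKM.

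Tcf7 (Entrez 21414, GRCm38 chr11:52246527-52283383) was the member with the tightest values. It had 412, 415 and 414 RPKM in GFP-hi and 439.7, 424 and 430 RPKM in GFP-lo libraries. Every GFP-hi library lay below every GFP-lo library, with a mean difference of -4.02%, without passing the test (log2 fold change -0.06, SE, the standard error, 0.051, 95% interval -0.18 to 0.06, limma's adjusted p = 0.58). Only 0.631% of genes tested had a smaller SD within groups, and none of the 31 genes within 0.5 log2 units of its level did. On the log2 scale the interval bounds a fall of Tcf7 in GFP-hi cells at 0.18 and a rise at 0.06.

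Lef1 (Entrez 16842, chr3:131110297-131224357), the HMG-box partner of TCF-1, had 109, 122 and 97.0 RPKM in GFP-hi and 101, 99.8 and 89.0 RPKM in GFP-lo libraries. The groups overlapped, since GFP-hi replicate 3 fell below 2 of the GFP-lo libraries. On the log2 scale GFP-hi minus GFP-lo was 0.17 (SE 0.089, interval -0.03 to 0.38, limma's adjusted p = 0.33). It was 0.09 without GFP-hi replicate 2 and 0.07 with array quality weights. The Tcf7 to Lef1 ratio, which cancels the scaling of a library, was 3.83 ± 0.428 in GFP-hi and 4.49 ± 0.305 in GFP-lo (SD, n = 3 each). It overlapped between the groups (exact permutation p = 0.2, two-sided, where 3 libraries against 3 cannot go below 0.1).

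Foxo1 (Entrez 56458, chr3:52268337-52350109), which drives Il7r and Klf2, had 55.0, 56.5 and 53.1 RPKM in GFP-hi and 51.0, 49.4 and 48.8 RPKM in GFP-lo libraries. All GFP-hi libraries lay above all GFP-lo libraries. The log2 fold change of 0.14 (SE 0.051, interval 0.02 to 0.26) had an unadjusted p of 0.0254 and did not pass after adjustment (limma's adjusted p = 0.18). An unadjusted p under 0.05 was reached by 3 of the 10 factors and by 20.2% of all genes tested. It was positive in all 19 alternative fits, from 0.11 to 0.19, and passed in none. Foxp1 (Entrez 108655, chr6:98925342-99522746), a forkhead factor of quiescence, had 19.1, 19.7 and 19.2 RPKM in GFP-hi and 18.3, 18.8 and 18.5 RPKM in GFP-lo libraries. The groups were separate by a narrow margin, a mean difference of 4.22% (log2 fold change 0.06, interval -0.06 to 0.17, limma's adjusted p = 0.58), which was 0.03 when scaled by the trimmed mean of M values.

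Bach2 (Entrez 12014, chr4:32238413-32586109), the repressor, had 6.83, 6.83 and 6.88 RPKM in GFP-hi and 6.64, 6.28 and 5.86 RPKM in GFP-lo libraries. Its GFP-hi libraries were nearly equal and all above the GFP-lo libraries, which spread more widely. The log2 fold change was 0.11 (SE 0.061, interval -0.03 to 0.25, limma's adjusted p = 0.35), and it was 0.07 without GFP-lo replicate 3.

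Of the 5 naive-side factors, none passed the test, and 4 had a positive and 1 a negative log2 fold change. Foxo1, Foxp1 and Bach2 had all GFP-hi libraries above all GFP-lo libraries and Tcf7 had them all below. Of all genes tested, 17.1% were separate in the first way and 9.84% in the second. Over the 10 factors, 6 had separate groups (5 above, 1 below), against 26.9% of all genes tested, so separate groups without a call were common in these libraries.

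**Figure D2:**
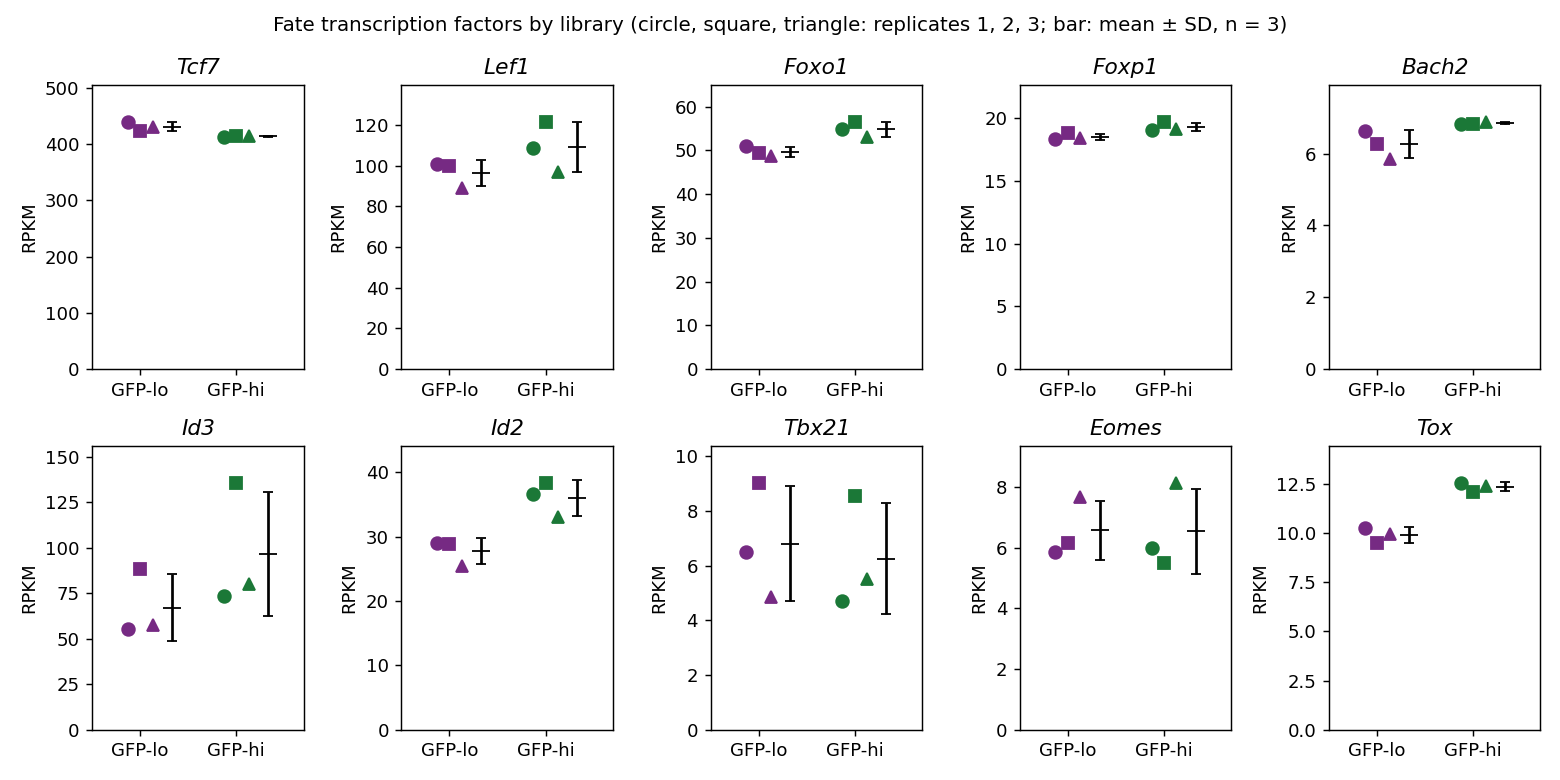
RPKM of each of the 10 factors from 0, with each point 1 library (purple GFP-lo, green GFP-hi; circle, square and triangle are replicates 1, 2 and 3) and a bar for the mean ± SD of 3 libraries. Id2 and Tox show a clear gap between the groups, Tcf7 and Foxp1 a narrow one, and Id3, Tbx21 and Eomes overlap.

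The Id genes are short genes with 1 promoter window each in the RefSeq table. Their upstream sequences are shown because Id2 was 1 of the 2 factors called and Id3 had the largest fold change of the 10. Each is the 250 bases before the start site, read 5′ to 3′ on the gene's strand (RefSeq, GRCm38.p6), from chr12:25096093-25096342 on the minus strand for Id2 and from chr4:136143572-136143821 on the plus strand for Id3. Capitals mark an E-box (CANNTG, the same on both strands), the motif that E proteins bind and Id proteins keep them from.
Id2: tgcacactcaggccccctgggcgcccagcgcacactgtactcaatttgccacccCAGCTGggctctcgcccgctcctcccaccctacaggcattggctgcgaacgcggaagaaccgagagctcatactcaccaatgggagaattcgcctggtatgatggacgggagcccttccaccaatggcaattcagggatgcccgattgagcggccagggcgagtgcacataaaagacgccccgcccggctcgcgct
Id3: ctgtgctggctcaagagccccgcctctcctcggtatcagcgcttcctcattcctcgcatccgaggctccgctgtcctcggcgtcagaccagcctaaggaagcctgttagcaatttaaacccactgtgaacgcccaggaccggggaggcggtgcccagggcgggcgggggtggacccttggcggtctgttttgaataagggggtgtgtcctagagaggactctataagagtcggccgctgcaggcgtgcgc
The Id2 window held 1 E-box, beginning 196 bases before the start site, and the Id3 window held none, while 66.2% of all 32851 RefSeq windows of this length held at least 1. Neither window held the TCF/LEF core CTTTGA, the forkhead core TGTTTAC, the T-box site AGGTGTGA or the Bach2 core TGANTCA on either strand. These were found in 13.8%, 3.17%, 1.12% and 6.75% of all windows. Both windows had a GC content of 62.8%.

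Id2 (Entrez 15902, chr12:25093799-25096092) was higher in GFP-hi cells. It had 36.6, 38.4 and 32.99 RPKM in GFP-hi and 28.9, 28.9 and 25.5 RPKM in GFP-lo libraries. The lowest GFP-hi library lay above the highest GFP-lo library. Mean levels were 36.0 ± 2.74 RPKM against 27.8 ± 1.99 RPKM as mean ± SD of 3 libraries. On the log2 scale they were 0.36 apart, with an SE of 0.076 and an interval from 0.19 to 0.54 (limma's adjusted p = 0.040). The call lay close to the threshold. It was lost in 5 of the 6 fits without 1 library, with limma's adjusted p values from 0.080 to 0.13, and was kept without GFP-hi replicate 3 (0.048). Without both libraries of high heat-shock RNA the log2 fold change was 0.35 (limma's adjusted p = 0.15). Longer transcripts tended to have lower fold changes in these libraries (Spearman rho -0.227 across genes, which are not independent replicates). With that trend removed Id2 had a log2 fold change of 0.31 (limma's adjusted p = 0.050, just over the threshold).

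Id3 (Entrez 15903, chr4:136143822-136145392) had the largest fold change of the 10 factors and also the largest spread. It had 73.5, 136 and 80.0 RPKM in GFP-hi and 55.2, 88.2 and 57.7 RPKM in GFP-lo libraries. GFP-lo replicate 2 lay above 2 of the GFP-hi libraries, so the groups overlapped. In each group Id3 was highest in replicate 2, the library with high Hspa1a. Its log2 fold change was 0.50 with an SE of 0.25 and an interval from -0.08 to 1.07 (limma's adjusted p = 0.32). Without both replicate 2 libraries, 73.5 and 80.0 RPKM stood against 55.2 and 57.7 RPKM, a log2 fold change of 0.43 (limma's adjusted p = 0.054). Among the 4 libraries with more reads of nasal receptor genes, which hold GFP-lo replicate 2 but not GFP-hi replicate 2, it was 0.10 (limma's adjusted p = 0.78). It stayed positive when any 1 library was left out, from 0.22 without GFP-hi replicate 2 to 0.71 without GFP-lo replicate 2.

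The balance of the Id genes against each other and against the E proteins was compared within libraries. The Id3 to Id2 ratio was 2.01, 3.54 and 2.42 in GFP-hi and 1.91, 3.05 and 2.27 in GFP-lo libraries, highest in replicate 2 of both groups (exact permutation p = 0.6). Of the E proteins and further Id genes, Tcf3 (22.0 ± 0.525 RPKM in GFP-hi, 20.7 ± 2.63 RPKM in GFP-lo) and Tcf12 (4.86 ± 0.0804 and 4.82 ± 0.192 RPKM) could be tested (SD, n = 3 each). Neither passed, with log2 fold changes of 0.09 and 0.01 (limma's adjusted p = 0.61 and 0.95), and the sign of Tcf12 turned under scaling by the trimmed mean of M values. Tcf3 was 0.03 without GFP-lo replicate 2 and 0.19 without GFP-lo replicate 1. Id2 relative to the sum of Tcf3 and Tcf12 was 1.35, 1.45 and 1.22 in GFP-hi and 1.01, 1.23 and 1.04 in GFP-lo libraries. GFP-hi replicate 3 fell just below GFP-lo replicate 2, and the difference did not pass (exact permutation p = 0.2). With Id3 included, the Id to E protein ratio was 4.94 ± 1.44 in GFP-hi and 3.77 ± 1.08 in GFP-lo (exact permutation p = 0.4). Over the 5 ratios computed, including Tcf7 to Lef1 and Eomes to Tbx21, the smallest Benjamini-Hochberg adjusted exact p was 0.5.

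Tbx21 (Entrez 57765, chr11:97098007-97115331) had 4.70, 8.55 and 5.499 RPKM in GFP-hi and 6.50, 9.04 and 4.87 RPKM in GFP-lo libraries. The groups overlapped almost fully, and replicate 2 was highest in both. The log2 fold change was -0.11 with an SE of 0.23 and an interval from -0.63 to 0.42 (limma's adjusted p = 0.84). Its sign turned when GFP-hi replicate 1 (0.05) or GFP-lo replicate 2 (0.09) was left out. Eomes (Entrez 13813, chr9:118478186-118486132) had 5.99, 5.49 and 8.14 RPKM in GFP-hi and 5.86, 6.16 and 7.68 RPKM in GFP-lo libraries. Here replicate 3 was highest in both groups. The log2 fold change was -0.01 with an SE of 0.14 and an interval from -0.33 to 0.31 (limma's adjusted p = 0.97), and its sign was positive in 6 of 19 alternative fits. The Eomes to Tbx21 ratio ran from 0.643 to 1.48 in GFP-hi and from 0.681 to 1.58 in GFP-lo libraries (exact permutation p = 1), lowest in replicate 2 of both. The Tbx21 interval holds changes of the size seen in Id2 and Tox, and the Eomes interval holds that of Tox but not that of Id2, so the data do not show that the T-box factors were equal between the groups.

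Tox (Entrez 252838, chr4:6686353-6991557) was higher in GFP-hi cells. It had 12.6, 12.1 and 12.4 RPKM in GFP-hi and 10.3, 9.50 and 9.93 RPKM in GFP-lo libraries. The groups were well apart, and within each group the values were tight. Mean levels were 12.3 ± 0.229 RPKM against 9.90 ± 0.386 RPKM as mean ± SD of 3 libraries. On the log2 scale they were 0.29 apart, with an SE of 0.054 and an interval from 0.17 to 0.42 (limma's adjusted p = 0.026). Without both libraries of high heat-shock RNA it was 0.28 (limma's adjusted p = 0.11). The call was lost in 4 of the 6 fits without 1 library, with limma's adjusted p values from 0.098 to 0.11, and kept without GFP-hi replicate 2 (0.036) or GFP-lo replicate 1 (0.045). The fold change itself ran from 0.27 to 0.33 over all 19 alternatives.

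**Figure D3:**
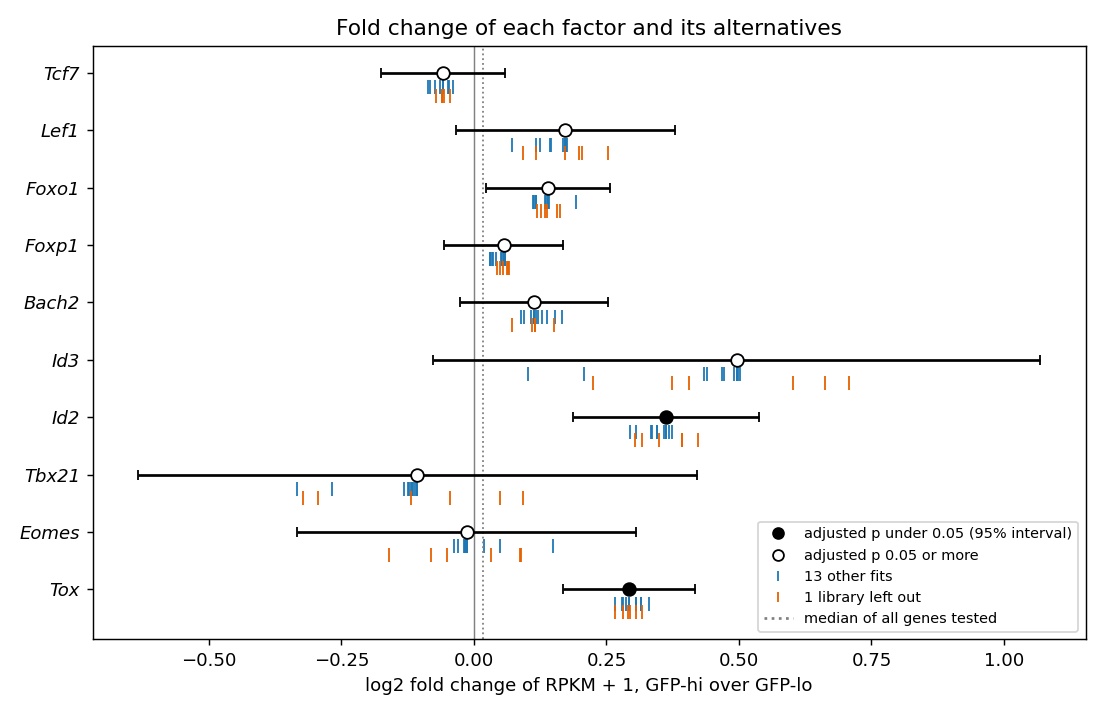
Log2 fold change of RPKM + 1, GFP-hi over GFP-lo, for each factor with its 95% interval (filled point: adjusted p under 0.05), above ticks for 13 other fits (blue) and the 6 fits without 1 library (orange). The Id2 and Tox ticks all lie to the right of 0.26, while those of Tbx21 and Eomes fall on both sides of 0.

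The factors ranged from steady to unsteady between libraries of the same group. Tcf7, Foxp1, Foxo1 and Tox had an SD within groups (log2 scale) of 0.019, 0.022, 0.039 and 0.040, smaller than in all but 0.631%, 1.02%, 6.74% and 7.39% of genes tested. Bach2 was also steady, with 18.2% of genes below it. Id2 (0.11) and Lef1 (0.13) lay in between, above 62.3% and 78.2% of genes tested. Id3 (0.42), Tbx21 (0.39) and Eomes (0.22) lay at the other end, above 99.0%, 98.7% and 94.8% of genes tested. Against genes within 0.5 log2 units of their own level Id3, Tbx21 and Eomes lay above 97.8%, 99.1% and 95.2%. Bach2, Eomes and Tbx21 had nearly equal mean levels and differed in SD from 0.055 to 0.39.

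**Figure D4:**
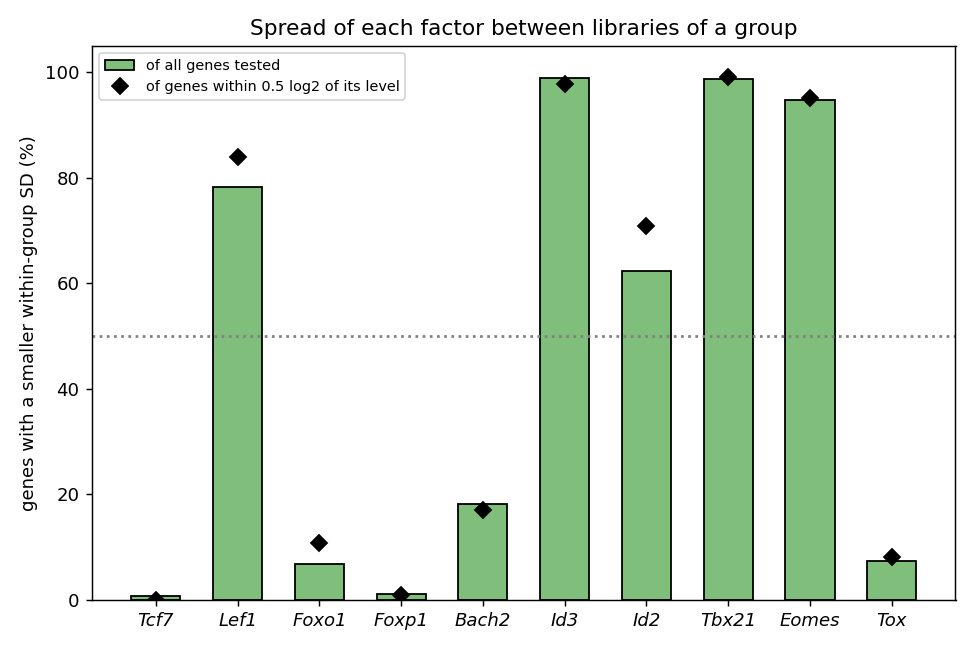
Percentage of genes with a smaller SD between libraries of a group than the named factor, over all genes tested (bars) and over genes within 0.5 log2 units of its level (diamonds). Tcf7 and Foxp1 lie at or near 0, and Id3, Tbx21 and Eomes above 94%.

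Genes with a profile most like each called factor were named by the root mean square difference of centred log2(RPKM + 1) over the 6 libraries, among 6411 genes at a mean of 5 RPKM or more. Acot9 (0.015), Gabrr2 (0.027) and Ccne1 (0.032) were closest to Id2. Acot9 had 27.6, 29.2 and 25.5 RPKM in GFP-hi and 21.6, 21.7 and 19.1 RPKM in GFP-lo libraries, the same order of libraries as Id2 within GFP-hi. Hadha (0.012), Slc6a6 (0.020) and Abcb8 (0.028) were closest to Tox. Hadha, which encodes a subunit of the mitochondrial trifunctional protein, had 17.4, 16.7 and 16.8 RPKM in GFP-hi and 14.3, 13.4 and 13.7 RPKM in GFP-lo libraries.

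Paralogs and protein partners of the factors gave no call. Of 26 such genes, 21 were listed and 14 tested, with 0 higher and 0 lower under limma and a median log2 fold change of -0.03, against 0.02 over all genes tested. At an unadjusted p under 0.05 there were 5 of the 14, against 20.2% of all genes tested. In the other lists the count was 0 of 2 E proteins, 5 of 22 other fate factors and 6 of 19 naive-side genes. It was 12 of 16 effector-side genes and 4 of 4 genes of the inhibitory list. The 5 partner genes were Cbfb and Ctnnb1 above and Runx1, Tle1 and Tle4 below. None of these 5 changed sign in any alternative fit that tested it. With array quality weights limma called 4 of them, Cbfb and Ctnnb1 as higher and Tle1 and Tle4 as lower. Tle4, a co-repressor that binds TCF-1 and LEF-1, had 32.7, 30.04 and 32.6 RPKM in GFP-hi and 40.6, 37.2 and 37.0 RPKM in GFP-lo libraries. Its groups were separate, with a log2 fold change of -0.26 (limma's adjusted p = 0.059), and it passed when scaled by the trimmed mean of M values, with array quality weights and with the length trend removed. These genes did not meet the naming rule; they were picked with their values in view.

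Among 33 other factors of CD8 T cell fate, 28 were listed and 22 tested, and 2 were higher and 0 lower. Ikzf2, which encodes Helios, rose from 1.14 ± 0.180 to 3.37 ± 0.521 RPKM as mean ± SD of 3 libraries, or by 1.03 on the log2 scale (limma's adjusted p = 0.0025). Bcl6, a repressor linked with memory and follicular fates, had 2.34, 2.29 and 2.79 RPKM in GFP-hi and 1.75, 1.39 and 1.38 RPKM in GFP-lo libraries. Its groups were separate, with a log2 fold change of 0.47 (SE 0.091, limma's adjusted p = 0.031). Bcl6 lost the call in 4 of the 6 fits without 1 library, with limma's adjusted p up to 0.12, and kept it without GFP-hi replicate 2 or GFP-lo replicate 1, while Ikzf2 kept it in all 6. Without both libraries of high heat-shock RNA Bcl6 lost the call (log2 fold change 0.47, limma's adjusted p = 0.14) and Ikzf2 kept it (0.90, 0.030). The median of the 22 was -0.06.

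Genes that mark the naive side, those of homing, survival and quiescence, were measured for all 19 listed, of which 1 is Tcf7 itself. One was higher and 2 were lower, with a median log2 fold change of -0.07. Il7r, a textbook Foxo1 target that encodes the interleukin 7 receptor alpha chain, fell by 0.80 on the log2 scale (limma's adjusted p = 0.0022) while Foxo1 had a log2 fold change of 0.14. Klf2, a further gene linked with Foxo1, had a log2 fold change of -0.11 (limma's adjusted p = 0.55). Leaving out GFP-hi replicate 3 gave -0.03, and leaving out GFP-lo replicate 2 gave -0.05. Klf2 was at -0.17 without GFP-lo replicate 3 and at -0.23 with array quality weights (limma's adjusted p = 0.47 and 0.10). Il6ra, the interleukin 6 receptor, had 14.7, 11.02 and 14.6 RPKM in GFP-hi and 19.8, 19.0 and 20.4 RPKM in GFP-lo libraries (log2 fold change -0.53, limma's adjusted p = 0.032), and it kept the call in 2 of the 6 fits without 1 library, those without GFP-hi replicate 2 or 3. Ccr9, a homing receptor, was higher, with 18.1, 20.0 and 16.1 against 11.99, 11.3 and 9.64 RPKM (log2 fold change 0.67, limma's adjusted p = 0.010). Without both libraries of high heat-shock RNA the log2 fold change of Ccr9 was 0.62 and the call was lost (limma's adjusted p = 0.077). In the same fit Il7r (-0.83, limma's adjusted p = 0.031) and Il6ra (-0.43, 0.039) kept the call.

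Genes of the effector side changed in both directions. Of 28 genes, 17 were listed and 16 tested, and 1 was higher and 4 were lower, with a median log2 fold change of -0.02. Cxcr3, a chemokine receptor gene bound by T-bet, had 8.87, 9.12 and 12.6 RPKM in GFP-hi and 23.5, 22.3 and 31.4 RPKM in GFP-lo libraries (log2 fold change -1.25, limma's adjusted p = 0.0054). Il18r1 (-1.23, limma's adjusted p = 0.0048), Il18rap (-0.78, 0.017) and Prf1, which encodes perforin (-0.57, 0.0046), were lower too. Il18r1 (mean 0.923 RPKM in GFP-hi, 3.525 RPKM in GFP-lo) and Il18rap (0.958 and 2.37 RPKM) were at low levels. Both passed the filter of 1 RPKM only through the GFP-lo group and were not tested at a mean of 5 RPKM. Gzmb, which encodes granzyme B, was higher, with 3.82, 3.38 and 3.26 RPKM against 0.949, 1.67 and 2.23 RPKM (log2 fold change 0.81, limma's adjusted p = 0.038), and kept the call in 2 of the 6 fits without 1 library, those without GFP-lo replicate 1 or 3. The Gzmb call was also lost at a pseudocount of 0.1 (limma's adjusted p = 0.054) and with the length trend removed (0.052). Il18rap kept it in 3 of 6, those without GFP-hi replicate 2 or 3 or GFP-lo replicate 1. Without both libraries of high heat-shock RNA, Prf1 alone of the 5 was called, although the log2 fold changes stayed near their size, at -0.60 for Prf1, -1.28 for Cxcr3, -1.05 for Il18r1, -0.75 for Il18rap and 0.85 for Gzmb. The part of Cd40lg-expressing or memory-phenotype cells in these differences was not tested.

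Of 10 genes of inhibitory receptors or their ligands often measured with Tox, 5 were listed and 4 tested. Cd200 (log2 fold change 1.12, limma's adjusted p = 0.00079) and Cd160 (0.98, 0.0014) were higher, and none was lower. Cd200 had 2.335, 2.31 and 2.418 RPKM in GFP-hi and 0.409, 0.602 and 0.636 RPKM in GFP-lo libraries. It thus passed the filter of 1 RPKM only through the GFP-hi group, and it was not tested at a mean of 5 RPKM. Its log2 fold change depended on the pseudocount and was 1.94 at 0.1. Cd160 encodes a receptor, while Cd200 encodes a ligand of an inhibitory receptor and not a receptor of this kind. Cd160 had 27.8, 25.1 and 24.0 RPKM in GFP-hi and 13.9, 12.2 and 11.3 RPKM in GFP-lo libraries, a larger difference than the 24.7% of Tox. Pdcd1, which encodes PD-1, had 0.892, 1.85 and 1.81 RPKM against 0.721, 0.802 and 0.851 RPKM. Its groups were separate at levels near the filter, and its log2 fold change of 0.47 did not pass (limma's adjusted p = 0.15). It passed without GFP-hi replicate 1 (0.66, limma's adjusted p = 0.020) and with array quality weights (0.53, limma's adjusted p = 0.043).

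**Figure D5:**
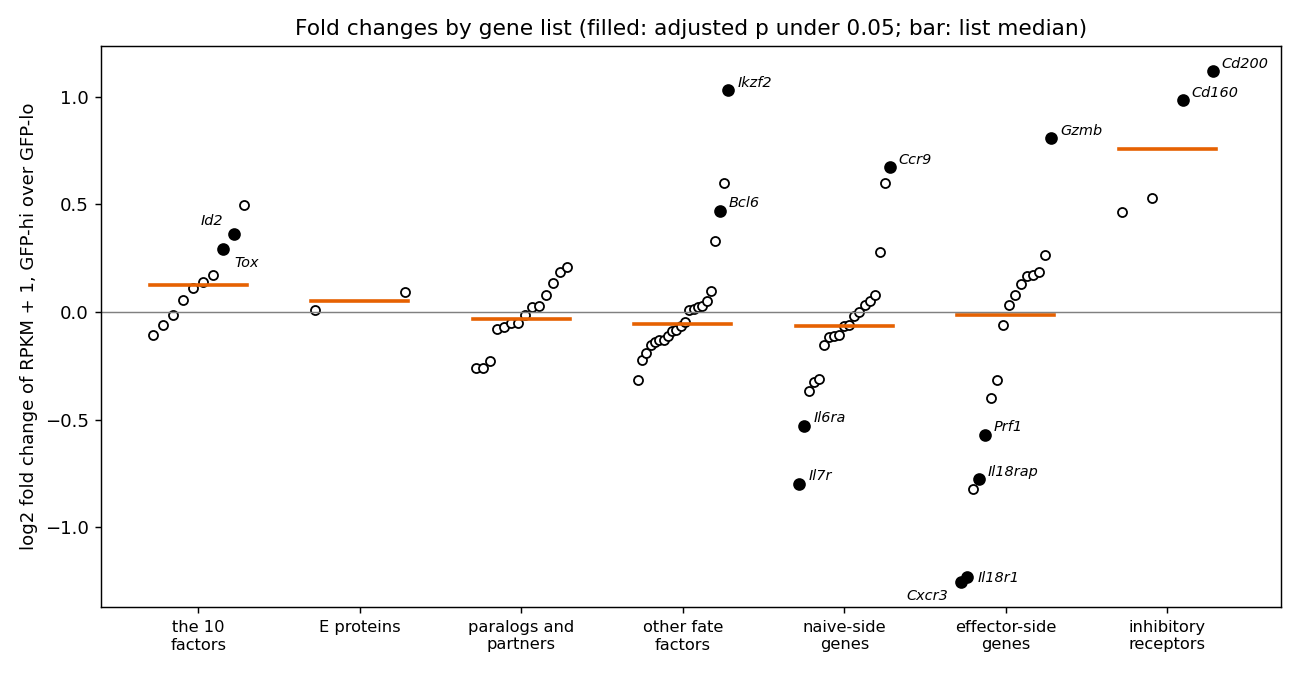
Log2 fold change of RPKM + 1, GFP-hi over GFP-lo, for the 10 factors and 6 gene lists, with each point 1 gene (filled and named: adjusted p under 0.05) and an orange bar at the median. The called genes of the naive and effector lists lie farther from 0 than Id2 and Tox.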

How the data were processed

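RNA from 3 GFP-hi and 3 GFP-lo samples of sorted cells was made into cDNA with the SMART-seq v4 kit and into libraries with the Nextera XT kit, per the labels' protocols. The values deposited by the authors are RPKM, 1 column for each sample, per the file headers. STAR and mm10 are named in the submitters' processing notes. The read counter and the annotation are not given in the sources used here, nor is whether strand was used. Lef1, Foxo1, Bach2, Eomes and Tox share exonic bases with 1 antisense gene each and Foxp1 with 2 genes on its own strand in GENCODE M21, so their reads may include those genes. Coordinates are from RefSeq on GRCm38.p6, the assembly of mm10.

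Columns were matched to samples by title. limma 3.58.1 in R 4.3.3 was run on log2(RPKM + 1) over the 9351 genes at a mean of 1 RPKM or more (eBayes with a trend of variance on level, two-sided, Benjamini-Hochberg), and a gene was called at an adjusted p under 0.05. Fold changes are on that scale, which understates the change of low genes. In simulations with a log2 change of 1 the fit over 9351 genes recovered 96.5% of changed genes, with 3.59% false calls. Smaller changes, such as those of Id2 (0.36) and Tox (0.29), were not simulated, so the recovery at such sizes is not known. Depth was sought with the 802 listed genes that have 1 transcript in GENCODE M21, and 88.9% to 90.8% of low values lay within 0.1 of a whole read. PCR copies are among the reads, which makes counting error a lower bound.

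Named genes were the 10 factors, up to 6 called genes from each of 6 lists, and the 3 genes most like each called factor. The members and lists were chosen with earlier results of these data known. Alternatives changed the pseudocount (0.1, 0.5), the filter (none, or a mean of 5 RPKM), the scaling, the variance model and the samples. A further 3 were chosen after seeing the data. The promoter table held 9 of the 10 factors. The trimmed mean of M values was taken against the mean profile, unweighted.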

Additional observations from a re-analysis of the deposited data

How the results depend on the processing

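Fits without the high heat-shock libraries, on the libraries with more nasal receptor reads, or with the length trend removed were chosen after seeing the data; unless one is named, the cause of a change was not tested. Members called fell from 2 to 0 to 1 without any 1 library, to 0 in the 4 libraries with lower heat-shock genes, to 1 (Tox) in the 4 with more nasal receptor reads and to 1 (Tox) with the length trend removed; the 10 planned fits on all 6 libraries each called Id2 and Tox. No factor was called as lower in any fit. Fewer libraries leave fewer degrees of freedom. Over all genes, calls were 71 to 187 higher and 59 to 128 lower without 1 library, 119 and 83 at a mean RPKM of at least 5 (fewer genes tested), 783 and 499 when array weights were used, 52 and 49 in the 4 libraries with lower heat-shock genes, and 207 and 209 with the length trend removed. The sign of 8 factors held in all 19 alternatives. Tbx21 ran from -0.323 to 0.0926 when 1 library was left out, turning to 0.0486 if that was GFP-hi replicate 1 and to 0.0926 if it was GFP-lo replicate 2. Eomes turned to 0.1501 when array weights were used, 0.05 and 0.0195 in both sets of 4 libraries, and 0.0331, 0.0862 and 0.0893 without GFP-hi replicate 1, GFP-hi replicate 2 and GFP-lo replicate 3, in a range from -0.1603 without 1 library. Tcf12 turned to -0.0132 with the trimmed mean of M values, -0.0244 in the 4 libraries with lower heat-shock genes and -0.0088 with the length trend removed, and ran from -0.013 to 0.0344 without 1 library.

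Paralogs and partners had 1 call with trimmed mean of M values, 4 with array quality weights and 1 with the length trend removed. Other fate factors had 0 calls at a mean RPKM of at least 5, where Ikzf2 and Bcl6 were not tested, and 1 in the 4 libraries with lower heat-shock genes, and 1 to 2 without 1 library. Their median was -0.0056 without a filter, -0.0128 when array weights were used, 0.003 and 0 in both sets of 4 libraries, and -0.0613 to -0.0138 without 1 library. The naive-side median was -0.0396 with quantile normalization, -0.0929 with trimmed mean of M values, -0.0495 when array weights were used (5 calls), -0.0179 with more nasal receptor reads and -0.0912 to -0.0209 without 1 library. The effector-side median was -0.1437 at a mean RPKM of at least 5 (2 calls), -0.1911 with more nasal receptor reads and also with array quality weights, and -0.1581 to 0.0292 without 1 library (3 to 5 calls), with 1 call in the 4 libraries with lower heat-shock genes. The inhibitory median was 0.9157 at a pseudocount of 0.1, 0.5318 without a filter, 0.9839 at a mean RPKM of at least 5 (1 call) and 0.7063 to 0.8806 without 1 library. No paired analysis was possible because the labels give no replicate numbers and tie no GFP-hi to a GFP-lo sample; the numbers used here follow the order of deposit and only name a library.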
